A study of Rattus norvegicus with 24 samples.

Results

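Rat testis cells taken after 7 days in a three-dimensional gel culture were set against the fresh isolate that the culture was seeded from, gene by gene. The comparison used 6 of the 24 libraries of the series, 3 of day 7 cultures and 3 of the isolate (called tissue here). Genes were kept when they reached 1 CPM (a gene's read count scaled to the size of its library) in 3 or more of the 6 libraries, which left 12782 of 21425 genes. The question was which messenger RNAs differed between a week of culture and the starting cells.

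All groups came from wild-type Sprague Dawley rats of postnatal day 5, and from cells that were neither enriched nor depleted for any type. The day 7 cells had grown at a seeding density of 5000000 cells per mL in 4.5 mg/mL Matrigel, a basement membrane gel, in serum-free medium of which 50% was renewed every 24 h, with no hormone added. The tissue libraries came from cells that had not been cultured. Cultures of days 3 and 5 from the same litter (3 libraries each) were used here for the shared estimate of spread and for following single genes in time. The libraries within a group were technical replicates of 1 litter. The p-values below therefore speak of the spread between technical replicates, not between litters.

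A newborn rat testis holds cords of Sertoli cells, which nurse the germ cells and secrete anti-Müllerian hormone and inhibins, wrapped by contractile peritubular myoid cells. Between the cords lie androgen-producing Leydig cells, stroma, vessels and macrophages. Sertoli cells still divide at this age, the germ cells become spermatogonia, and the fetal Leydig cells later give way to adult ones. In bulk RNA, fewer cells of a type and less RNA per cell cannot be told apart, and this holds for every cell type marker below.

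The day 7 libraries held 17431286 to 23065238 reads and the tissue libraries 21802311 to 30400440, so that 1 read was worth 0.0329 to 0.0574 CPM. Where no read was counted, the limit that counting error allows (3 reads) was 0.0987 to 0.172 CPM, depending on the library. On the first principal component of the 12 baseline libraries, with 72.6% of the variance, day 7 lay at 27.1 to 33.2 and tissue at -78.6 to -76.1. The replicates spread more at day 7, where the median gene had a coefficient of variation of 10.3%, against 6.45% in tissue. Levels below are CPM, given per library or as mean ± SD (n = 3 per group). Differences are log2 of (CPM + 1), day 7 minus tissue, ± SE from limma, which understates the change of genes near 1 CPM. A gene was called at a limma adjusted p under 0.05. Of the 12782 genes tested, 155 reached 1 CPM in day 7 libraries only and 441 in tissue libraries only, so that the filter on low values let them in through the group where they were high. Defining markers of Sertoli cells (Amh, Sox9), Leydig cells (Star, Cyp11a1), myoid cells (Acta2) and germ cells (Ddx4) were detected in all 6 libraries.

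Of the 12782 genes tested, 7765 (60.7%) were called, 3668 (28.7%) higher at day 7 and 4097 (32.1%) lower. With a further condition of at least 2-fold, 1389 (10.9%) were higher and 1421 (11.1%) lower, and at 8-fold the counts were 88 (0.688%) and 85 (0.665%). The median difference over all genes tested was -0.05, and -0.02 with TMM scaling. Because most genes were called, a count of called genes within a small group says little by itself. Each group below is given with its count in both directions and with its median difference.

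**Figure D1:**
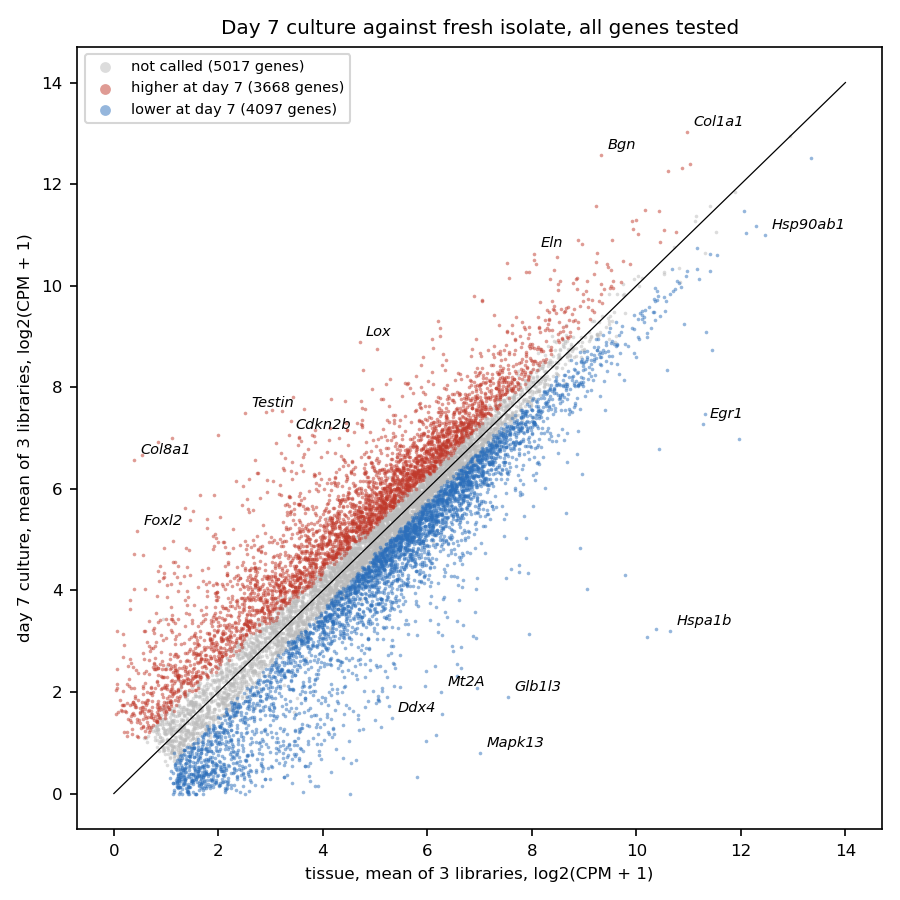
Mean level of each of the 12782 genes tested at day 7 (vertical axis) and in tissue (horizontal axis), both as log2(CPM + 1) over 3 libraries, with the line of equal levels. Red points were called higher at day 7 (3668 genes), blue points lower (4097 genes) and grey points were not called. The early gene Egr1 and the chaperone gene Hspa1b lie far below the line on the right, and matrix genes such as Col8a1, Lox, Bgn and Col1a1 lie above it.

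**Figure D2:**
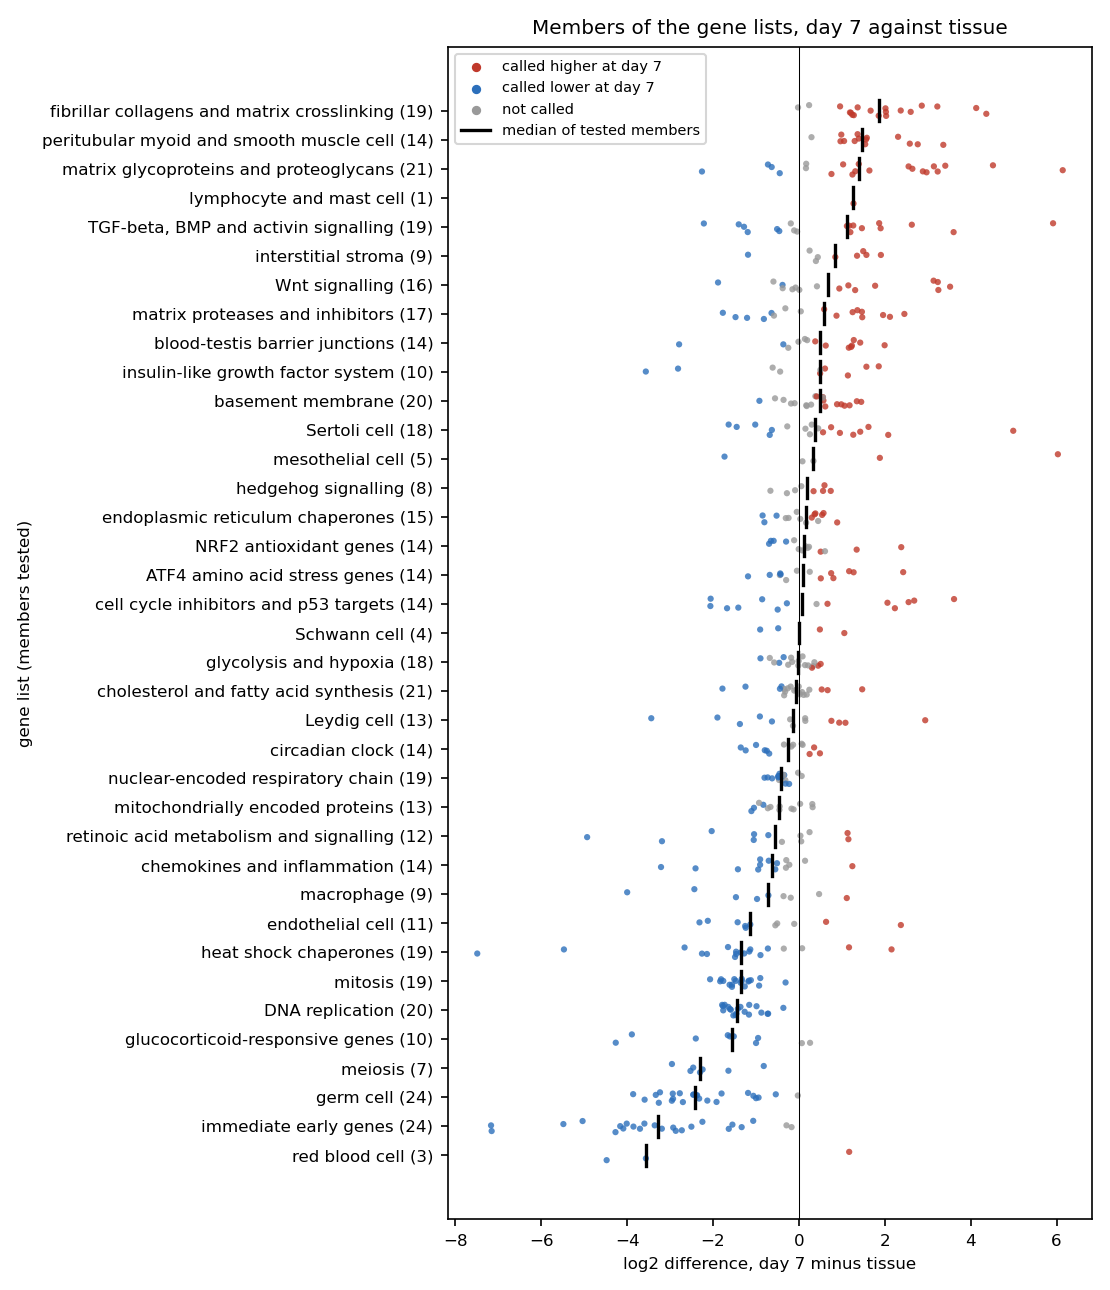
Difference between day 7 and tissue (horizontal axis, log2) for every tested member of 37 gene lists, sorted by the list's median (black bar), with the number of members tested in brackets. Red marks members called higher at day 7, blue those called lower and grey those not called. The fibrillar collagen list has the highest median at 1.86, and the immediate early list has a median of -3.27 with 0 members called higher.

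Immediate early genes fell together. They are transcription factors and regulators whose transcription starts right after a stimulus and needs no new protein. Of the 24 members (of 30 listed) tested, 22 fell and 0 rose, and the median difference was -3.27. Among the 24, 1 passed the filter through the tissue libraries alone. The summed level of the list was 967 to 1237 CPM in the day 7 libraries and 13290 to 13870 CPM in the tissue libraries. The 2 that were not called were Fosl1 (-0.17) and Ier5 (-0.29).

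Fos, a partner of Jun in the AP-1 transcription factor, had 10.9, 6.63 and 7.76 CPM in the 3 day 7 libraries, against 1341, 1335 and 1315 CPM in the tissue libraries. Its close relative Fosb had 9.70, 6.20 and 6.39 CPM at day 7 and 1183, 1217 and 1137 CPM in tissue. Both genes were barely present in each culture library and abundant in each tissue library, so the groups lay far apart. Fos fell by 7.17 on the log2 scale (SE 0.21, limma adjusted p = 5.62e-11), and Fosb fell by 7.15 (SE 0.18, limma adjusted p = 3.32e-11). Jun itself had 199, 154 and 175 CPM at day 7 and 2549, 2436 and 2640 CPM in tissue, with a difference of -3.85 ± 0.12. The third AP-1 gene, Jund, kept a mean of 422 ± 60.1 CPM at day 7 and had 2787 ± 239 CPM in tissue, a smaller difference of -2.73 ± 0.27.

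The zinc finger factor Egr1 had 172, 147 and 140.2 CPM at day 7 and 2488, 2545 and 2385 CPM in tissue, and fell by 4.01 (SE 0.24, limma adjusted p = 1.51e-08). Its relatives Egr2, Egr3 and Egr4 differed by -2.87, -2.93 and -4.16. Among the orphan nuclear receptors, Nr4a1 had 20.5, 18.0 and 17.4 CPM at day 7 and 888, 854 and 885 CPM in tissue, and Nr4a2 and Nr4a3 fell as well (-3.70 ± 0.19 and -4.27 ± 0.27). Klf4, a Krüppel-like factor, had 15.1, 12.2 and 18.7 CPM at day 7 and 540.2, 504 and 539 CPM in tissue. The antiproliferative gene Btg2 (-4.09 ± 0.13), the stress factor Atf3 (-3.60 ± 0.14) and Zfp36, which destabilises messenger RNAs (-3.19 ± 0.11), were lower in every day 7 library than in any tissue library. None of these genes rose at day 7, and Myc, with 13.8, 11.4 and 12.9 CPM at day 7 and 40.0, 39.9 and 37.3 CPM in tissue, was among those with smaller losses (-1.55 ± 0.13).

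Most heat shock chaperones, which refold damaged proteins, fell as well. Of the 19 listed members tested, 15 fell and 2 rose, with a median of -1.35. Together they held 3959 to 4159 CPM in the day 7 libraries and 13620 to 13700 CPM in the tissue libraries. The inducible chaperone Hspa1b had 11.1, 5.64 and 7.76 CPM at day 7, against 1517, 1611 and 1658 CPM in tissue. No gene named by the rule had a larger loss than Hspa1b (-7.49 ± 0.26, limma adjusted p = 1.74e-10). Hspa1a, a near-identical copy of Hspa1b, had 0.344, 0.217 and 0.203 CPM at day 7 and 54.6, 50.7 and 58.5 CPM in tissue, and how reads were divided between the copies is uncertain. Hspa1a passed the filter through the tissue libraries alone.

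The losses reached chaperones that cells hold at all times. Hspa8, the constitutive member of the same family, had 515, 550.5 and 557 CPM at day 7 and 2616, 2572 and 2575 CPM in tissue (-2.26 ± 0.10). The cytosolic chaperone Hsp90ab1 had 2046, 2054 and 2048 CPM at day 7, against 5624, 5590 and 5722 CPM in tissue (-1.46 ± 0.10). For both genes every tissue library stood above every day 7 library. The co-chaperones Hsph1 (-2.66 ± 0.14), Dnajb1 (-2.14 ± 0.10), Dnaja1 (-1.49 ± 0.09) and Bag3 (-1.65 ± 0.15) fell too, as did the mitochondrial chaperonin pair Hspd1 (-1.13 ± 0.08) and Hspe1 (-1.16 ± 0.22). Hsp90aa1 was uneven among the day 7 libraries, at 20.2, 137 and 91.4 CPM against 153, 168 and 145 CPM in tissue, and its call (limma adjusted p = 0.0427) was lost in 8 of 21 alternatives, at adjusted p up to 0.183. Against the trend, the small chaperone Cryab had 63.2, 67.2 and 69.0 CPM at day 7 and 14.4, 13.8 and 14.2 CPM in tissue (2.16 ± 0.09), and Hspb8 rose by 1.17 ± 0.17.

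The promoters of these groups are printed because the members moved together and because their classical control sequences are known. The windows run from 250 bases before to 50 bases after each gene's start, from RefSeq annotation of the rat build GRCr8, which differs from the build the reads were aligned to (mRatBN7.2). The heat shock element is bound by heat shock factors, the CArG box by serum response factor and the cAMP response element (CRE) by the CREB and ATF family. The capitals mark the CArG box in Egr2, the CRE in Btg2 and heat shock elements in Hsph1 and Dnajb1, all in the 5′ to 3′ direction of the gene.
Egr2, chr20:21054392-21054691, minus strand: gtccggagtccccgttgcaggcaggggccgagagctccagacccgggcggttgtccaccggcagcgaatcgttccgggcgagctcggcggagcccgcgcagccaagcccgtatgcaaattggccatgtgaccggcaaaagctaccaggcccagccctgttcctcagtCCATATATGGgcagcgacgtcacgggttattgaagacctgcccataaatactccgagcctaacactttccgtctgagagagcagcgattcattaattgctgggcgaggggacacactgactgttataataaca
Btg2, chr13:48087641-48087940, minus strand: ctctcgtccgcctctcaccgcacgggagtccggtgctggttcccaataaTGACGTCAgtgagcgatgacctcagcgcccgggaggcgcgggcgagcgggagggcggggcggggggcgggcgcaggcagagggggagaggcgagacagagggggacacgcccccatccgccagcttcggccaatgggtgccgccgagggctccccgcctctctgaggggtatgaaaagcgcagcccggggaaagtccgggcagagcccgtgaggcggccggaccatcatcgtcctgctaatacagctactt
Hsph1, chr12:10427118-10427417, plus strand: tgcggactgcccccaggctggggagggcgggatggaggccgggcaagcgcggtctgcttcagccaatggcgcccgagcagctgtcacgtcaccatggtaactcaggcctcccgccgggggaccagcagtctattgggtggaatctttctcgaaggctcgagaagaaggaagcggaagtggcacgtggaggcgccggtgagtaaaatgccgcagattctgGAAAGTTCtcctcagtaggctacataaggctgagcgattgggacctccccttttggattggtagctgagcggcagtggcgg
Dnajb1, chr19:41431092-41431391, minus strand: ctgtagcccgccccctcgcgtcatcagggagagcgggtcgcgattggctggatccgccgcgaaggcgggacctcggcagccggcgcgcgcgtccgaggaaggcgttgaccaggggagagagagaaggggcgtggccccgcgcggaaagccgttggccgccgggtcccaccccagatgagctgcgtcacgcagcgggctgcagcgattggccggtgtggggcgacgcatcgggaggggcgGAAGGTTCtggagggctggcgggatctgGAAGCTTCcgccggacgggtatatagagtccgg

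The CArG box of Egr2 began 83 bases before the gene's start, the CRE of Btg2 201 bases, and the GAANNTTC match of Hsph1 31 bases before it. Dnajb1 had 2 matches, the first beginning 11 bases before the start. Across lists, GAANNTTC, searched on both strands, was found in 10 of the 15 heat shock chaperone promoters that had an entry (66.7%), against 8.34% of all 27457 promoters. Its holders included Hspa8, Hspb1, Bag3 and Hspd1, which fell, and Hspb8, which rose. The CRE, TGACGTCA, was found in 5 of 20 immediate early promoters (25%), against 1.91% of all promoters and 3.17% of the promoters of tested genes. Its holders were Jund, Btg2 and Maff, which fell, and Ier2 and Dusp1, whose levels were not analysed here. The 20 promoters are those of listed genes with an entry, whether tested or not, and Fos, Jun, Egr3, Atf3, Myc and Nr4a3 had no entry. The shorter core TGACG, which every CRE contains, was found in 13 of 20 (65%), against 21.96% of all promoters and 31.6% of those of tested genes, and it was also in 8 of the 15 heat shock chaperone promoters (53.3%). The CArG box was found in 4 of 20 (20%), namely Egr1, Egr2, Klf6 and Zfp36, against 1.64% of all. These matches describe letters in the windows, and no binding was measured.

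Other genes with very large losses belonged to neither group. Glb1l3, a galactosidase-like gene, had 2.24, 4.29 and 1.67 CPM at day 7 and 183, 196 and 179 CPM in tissue (-5.71 ± 0.28). Ppp1r1b, a phosphorylation-dependent inhibitor of protein phosphatase 1, had 1.95, 0.910 and 0.812 CPM at day 7, against 72.3, 69.3 and 69.4 CPM in tissue (-5.04 ± 0.29). The stress-activated kinase gene Mapk13 had 0.230, 1.04 and 0.913 CPM at day 7 and 126, 128 and 128 CPM in tissue (-6.25 ± 0.22). Mapk13 was one of 150 tested genes whose levels disagreed between the 2 experiments of the series (above 20 CPM on average in one and under 1 CPM in the other), so its counting is less certain. Eef1a1, a translation elongation factor with one of the 6 largest losses in CPM (5836 ± 280.4 CPM at day 7, 10370 ± 698 CPM in tissue), was another of those genes.

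The genes that rose most had low levels in the isolate. Col8a1, a short-chain network collagen, had 95.5, 64.8 and 120.1 CPM at day 7 and 0.219, 0.229 and 0.460 CPM in tissue, a difference of 6.14 ± 0.19 (limma adjusted p = 6.73e-11). Pnoc, which encodes the precursor of the neuropeptide nociceptin, had 131, 102 and 126 CPM at day 7, against 1.18, 0.413 and 0.822 CPM in tissue (6.08 ± 0.19). Bmp3, a secreted growth factor of the BMP family, had 132, 125 and 122.6 CPM at day 7 and 0.614, 1.79 and 1.09 CPM in tissue (5.92 ± 0.19). In each of these genes the lowest culture library stood far above the highest tissue library, and an absence of overlap was a condition of the choice. Lrrn4, a membrane protein known from mesothelium, was more uneven in culture, with 78.6, 63.4 and 161 CPM at day 7, against 0.307, 0.642 and 0.395 CPM in tissue (6.03 ± 0.27). The list was completed by Cpz, an extracellular carboxypeptidase (5.08 ± 0.23), the Sertoli cell gene Testin (4.99 ± 0.14), the transcription factor Foxl2 (4.73 ± 0.37), the cardiac and slow muscle troponin Tnnc1 (4.58 ± 0.18) and the collagens Col12a1 (4.52 ± 0.26) and Col11a1 (4.36 ± 0.20). Col8a1, Lrrn4 and Foxl2 were among the genes that passed the filter through the day 7 libraries alone.

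**Figure D3:**
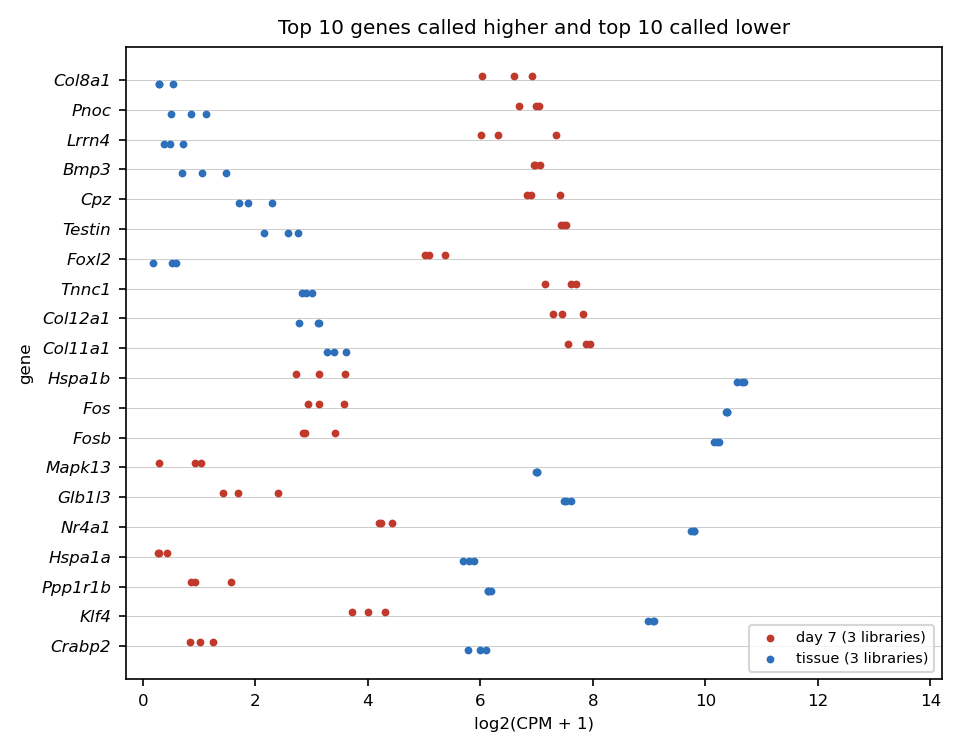
Level in each library, as log2(CPM + 1), of the 10 called genes with the largest gain and the 10 with the largest loss at day 7. Red points are the 3 day 7 libraries and blue points the 3 tissue libraries. Only genes without overlap between the groups were eligible, so the gap between red and blue points follows from the choice. The points of Fos, Fosb and Hspa1b are among the farthest apart.

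The fibrillar collagens with the enzymes that modify and crosslink them had the highest median of all lists (1.86). Of the 19 listed members tested, 17 rose and 0 fell. Among the 19, 1 passed the filter through the day 7 libraries alone. The summed level of the list was 19450 to 26160 CPM at day 7 and 6236 to 7013 CPM in tissue. Col1a1, a chain of type I collagen, had 6792, 7389 and 10850 CPM at day 7, against 2173, 1871 and 1986 CPM in tissue (2.02 ± 0.18, limma adjusted p = 7.6e-07). Its partner chain Col1a2 had 2471, 1432 and 1791 CPM at day 7 and 330.4, 491 and 589 CPM in tissue (2.02 ± 0.31). Type III collagen, Col3a1, had 5180, 5072 and 5915 CPM at day 7, against 2313, 1865 and 2099 CPM in tissue (1.37 ± 0.13). All 3 were higher in every culture library than in any tissue library.

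Among the modifying enzymes, the crosslinking oxidase Lox had 378, 379 and 658 CPM at day 7 and 25.6, 25.9 and 23.8 CPM in tissue (4.13 ± 0.25). Its relatives Loxl1 (2.86 ± 0.22), Loxl3 (1.86 ± 0.13) and Loxl4 (2.60 ± 0.21) rose, while Loxl2 was not called (0.24 ± 0.11, limma adjusted p = 0.0686). The prolyl hydroxylases, which stabilise the collagen helix, differed from each other: P4ha3 rose by 3.22 ± 0.22 and P4ha1 by 1.19 ± 0.10, and P4ha2 had 90.7 ± 10.0 CPM at day 7 and 91.8 ± 5.06 CPM in tissue (-0.02 ± 0.13). The collagen chaperone Serpinh1 (1.24 ± 0.18), the lysyl hydroxylase Plod2 (1.67 ± 0.15) and Pcolce, which enhances procollagen cleavage (2.37 ± 0.14), rose.

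Of the 21 members (of 22 listed) for matrix glycoproteins and proteoglycans tested, 15 rose and 4 fell (median 1.39). The small proteoglycan Bgn had 4962, 5742 and 7583 CPM at day 7 and 667, 629.6 and 620.0 CPM in tissue (3.23 ± 0.15), and Sparc, a collagen-binding glycoprotein, had 4580, 4489 and 5578 CPM at day 7 and 1654, 1448 and 1577 CPM in tissue (1.64 ± 0.13). Fibronectin, Fn1, had 1145, 1117 and 1937 CPM at day 7, against 193, 170.0 and 184 CPM in tissue (2.88 ± 0.25). Elastin, Eln, had 1343, 1281 and 2136 CPM at day 7 and 284, 239 and 266 CPM in tissue (2.55 ± 0.30). The third day 7 library was the highest of the culture libraries for Fn1, Eln, Postn and Spp1. For the cell-adhesion protein Postn it reached 371 CPM beside 138 and 128 CPM in the other two, against 21.1, 18.9 and 21.02 CPM in tissue (3.14 ± 0.46), and for Spp1, osteopontin, 235 CPM beside 86.3 and 35.6 CPM, against 7.89, 7.80 and 7.07 CPM in tissue (3.41 ± 0.58). Both calls held without that library. The exceptions were Ccn1, a matricellular gene with 323, 267 and 379 CPM at day 7 and 1503, 1609 and 1490 CPM in tissue (-2.26 ± 0.12), and Fbln1 (-0.63 ± 0.09), Tgfbi (-0.72 ± 0.14) and Fbln2 (-0.45 ± 0.15, a call lost without tissue replicate 1, 2 or 3 or day 7 replicate 2). The related Ccn2 rose by 1.03 ± 0.22, and decorin, Dcn, was not called (0.17 ± 0.11, limma adjusted p = 0.206).

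Basement membrane genes moved less. Of the 20 listed members tested, 10 rose and 1 fell (median 0.48). Col4a1 had 5529, 4572 and 5199 CPM at day 7 and 2029, 1702 and 1863 CPM in tissue (1.45 ± 0.14), and Col4a2 and Col4a5 rose by 1.35 ± 0.16 and 0.99 ± 0.09, whereas Col4a3 (-0.18 ± 0.20) and Col4a4 (-0.36 ± 0.15) were not called. The linker nidogens Nid1 (1.18 ± 0.14) and Nid2 (1.06 ± 0.10) rose. Among laminins, Lamc1 rose by 0.89 ± 0.15, and Lama2 fell by 0.92 (SE 0.32), a call lost in 4 of 21 alternatives (limma adjusted p up to 0.0961). Dag1, the receptor that anchors cells to laminin, had 3052, 3008 and 3102 CPM at day 7 and 591, 621 and 584 CPM in tissue (2.35 ± 0.10).

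Of the 17 members (of 24 listed) for matrix proteases and their inhibitors tested, 9 rose and 5 fell. Among the 17, 1 passed the filter through the tissue libraries alone. Gelatinase Mmp2 had 580.0, 653 and 629 CPM at day 7, against 239.8, 211 and 218 CPM in tissue (1.47 ± 0.09), and the procollagen protease Adamts2 rose by 2.46 ± 0.10. The serine protease inhibitor Serpine2 rose (2.12 ± 0.22), while Adamts9 (-1.77 ± 0.18) and the urokinase gene Plau (-0.82 ± 0.15) fell. The membrane protease Mmp14 was not called, at 506 ± 30.4 CPM at day 7 and 490.4 ± 7.82 CPM in tissue.

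Contractile genes of peritubular myoid and smooth muscle cells rose together. Of the 14 listed members tested, 13 rose and 0 fell (median 1.47), and their summed level was 8977 to 9799 CPM at day 7 and 3186 to 3538 CPM in tissue. Smooth muscle actin, Acta2, had 1822, 1797 and 2140 CPM at day 7, against 778, 689 and 761 CPM in tissue (1.37 ± 0.15). Synm, an intermediate filament protein, had 120.2, 124 and 119.5 CPM at day 7 and 11.8, 12.0 and 9.14 CPM in tissue (3.36 ± 0.12). The actin-binding genes Tagln (2.58 ± 0.15) and Cald1 (2.31 ± 0.15), the enteric-type actin Actg2 (2.77 ± 0.15) and smooth muscle myosin Myh11 (0.97 ± 0.14) rose as well. Only desmin, Des, was not called, with 60.1, 77.0 and 71.9 CPM at day 7 and 57.5, 47.7 and 65.3 CPM in tissue (0.29 ± 0.15, limma adjusted p = 0.106). Part of this list, Acta2 and Tagln among it, is also expressed by activated fibroblasts.

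In the stromal list, 5 of the 9 members (of 10 listed) tested rose and 1 fell. The stromal transcription factor Tcf21 (1.35 ± 0.12) and the growth factor Igf1 (1.57 ± 0.18) rose, and Dlk1, a fetal stroma and precursor gene, had 38.5, 50.03 and 43.1 CPM at day 7 and 103, 93.6 and 105 CPM in tissue (-1.19 ± 0.15). Pdgfra was not called, with 269, 438 and 197 CPM at day 7 and 232, 200.1 and 199.8 CPM in tissue.

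Germ cell messenger RNAs fell almost throughout. Of the 24 members (of 25 listed) tested, 23 fell and 0 rose, with a median of -2.42, and the summed level of the markers was 159.5 to 193 CPM at day 7 and 846 to 918 CPM in tissue. Of these genes, 3 (Sohlh2, Nanos2 and Rhox10) passed the filter through the tissue libraries alone. The germ line helicase Ddx4 had 1.43, 1.39 and 2.59 CPM at day 7, against 38.5, 40.3 and 38.1 CPM in tissue (-3.86 ± 0.31, limma adjusted p = 2.54e-07). Dazl, an RNA-binding protein needed for germ cell fate, had 4.88, 13.1 and 10.6 CPM at day 7 and 90.1, 97.9 and 93.3 CPM in tissue (-3.26 ± 0.39). The spermatogonial factor Zbtb16 had 0.803, 1.65 and 0.913 CPM at day 7, against 9.16, 11.3 and 11.2 CPM in tissue (-2.46 ± 0.24). Every day 7 library lay below every tissue library for these 3 genes, yet Ddx4 and Dazl were still detected in each.

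Genes of the piRNA pathway, which silences transposons in germ cells, fell by like amounts, with Mov10l1 at -3.59 ± 0.34, Mael at -3.33 ± 0.25, Piwil4 at -3.23 ± 0.21, Tdrd1 at -2.96 ± 0.20 and Piwil2 at -2.38 ± 0.19. Tdrd9 kept more of its level, at 29.7, 27.0 and 20.3 CPM at day 7 and 54.6, 60.0 and 47.9 CPM in tissue (-1.06 ± 0.16). Of the receptors for the growth factor GDNF, Gfra1 fell by 2.13 (SE 0.19) and Ret by 1.80 (SE 0.21). Gdnf itself, made by Sertoli cells, had 9.18, 10.9 and 6.90 CPM at day 7 and 13.3, 15.0 and 14.6 CPM in tissue (-0.63 ± 0.17). The call of Nanos3 (-0.54 ± 0.22) was lost in 8 of 20 alternatives. Kit was the exception, with 30.0, 42.8 and 25.5 CPM at day 7 and 28.7, 34.1 and 35.2 CPM in tissue (-0.03 ± 0.17, limma adjusted p = 0.903), and it is also a gene of Leydig cells. Of 12 meiosis symbols, 7 passed the filter on low values, 4 of them through the tissue libraries alone (Sycp1, Sycp2, Dmc1 and Hormad1), so their falls are not counted. Smc1b had 3.06 ± 0.888 CPM at day 7 and 30.0 ± 1.68 CPM in tissue, and Dmc1, a recombinase of early meiosis, had 0.115, 0 and 0 CPM at day 7, at or below the counting limit, and 4.12, 5.32 and 5.56 CPM in tissue. Other lists may hold genes that germ cells also express, and the part of the germ cell loss in them was not tested.

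Cell division genes fell without exception among those tested. Of the 20 listed members for DNA replication, 20 fell (median -1.44), and of the 19 members (of 20 listed) for mitosis, 19 fell (median -1.35). Mcm2, a subunit of the replicative helicase, had 104, 106 and 101 CPM at day 7 and 349.5, 369 and 364 CPM in tissue (-1.79 ± 0.09, limma adjusted p = 3.59e-09). The proliferation antigen Mki67 had 121.9, 157 and 113 CPM at day 7, against 306, 362 and 315 CPM in tissue (-1.33 ± 0.23). The spindle checkpoint kinase Bub1 had 38.1, 49.2 and 36.8 CPM at day 7 and 167, 187 and 172 CPM in tissue (-2.07 ± 0.12). All 3 stayed above the counting floor in each culture library. The smallest differences in the 2 lists were those of Fen1 (-0.36 ± 0.13) and Tpx2 (-0.31 ± 0.10), whose calls were each lost when single libraries were left out (4 and 2 of 21 alternatives).

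Inhibitors of the cell cycle and targets of p53 divided, with 6 of the 14 members (of 16 listed) tested higher and 7 lower. Among the 14, 1 passed the filter through the day 7 libraries alone. Cdkn2b, which blocks the G1 kinases, had 139.9, 74.8 and 181 CPM at day 7, against 9.69, 9.36 and 8.62 CPM in tissue (3.61 ± 0.28, limma adjusted p = 2.09e-07). Cdkn1a had 99.1, 65.7 and 83.8 CPM at day 7 and 19.7, 18.9 and 17.9 CPM in tissue (2.06 ± 0.24), and the p53 targets Ccng1 (2.55 ± 0.12), Phlda3 (2.68 ± 0.26) and Tp53inp1 (2.23 ± 0.15) rose with it. In the other direction, Gadd45a (-2.06 ± 0.22), Gadd45b (-1.67 ± 0.20) and Plk2 (-2.06 ± 0.10), which also respond to acute stress, fell, as did Mdm2, the ligase that degrades p53 (-0.49 ± 0.13), and the imprinted inhibitor Cdkn1c (-1.41 ± 0.17).

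The Sertoli cell list moved in both directions, with 8 of the 18 members (of 20 listed) tested higher and 5 lower at day 7 (median 0.37), and a summed level of 5966 to 6728 CPM at day 7 and 3730 to 3796 CPM in tissue. Testin, a protein of Sertoli cell junctions, had 184, 179 and 172 CPM at day 7, against 4.999, 5.73 and 3.45 CPM in tissue (4.99 ± 0.14). Clusterin, Clu, a secreted Sertoli cell product, had 1475, 1533 and 1544 CPM at day 7 and 360.5, 356 and 359 CPM in tissue (2.08 ± 0.08). Sox9, which sets Sertoli cell fate, had 223, 178 and 194 CPM at day 7, against 97.1, 106 and 102 CPM in tissue (0.95 ± 0.12, limma adjusted p = 1.6e-05). These genes were higher in every culture library.

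Anti-Müllerian hormone, Amh, had 319, 294 and 224 CPM at day 7 and 251, 209.9 and 233 CPM in tissue, and the groups overlapped (0.26 ± 0.21, limma adjusted p = 0.309). The FSH receptor, Fshr, had 18.6, 28.4 and 26.8 CPM at day 7, against 27.4, 32.6 and 28.7 CPM in tissue (-0.27 ± 0.18, limma adjusted p = 0.218). Neither was called. The subunits of inhibin and activin went separate ways, as Inha had 452, 430.3 and 347 CPM at day 7 and 839.5, 767 and 871 CPM in tissue (-1.02 ± 0.12), while Inhbb (1.26 ± 0.12) and Inhba (1.87 ± 0.12) rose. Dmrt1, a factor that maintains male cell fate, had 68.5, 50.7 and 52.2 CPM at day 7 and 166, 152 and 151 CPM in tissue (-1.45 ± 0.19), and Foxl2, known from granulosa cells of the ovary, had 40.6, 31.5 and 33.1 CPM at day 7 and 0.438, 0.504 and 0.132 CPM in tissue. Rhox5, a homeobox gene of this list, was below the filter.

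Junction genes of the blood-testis barrier, which Sertoli cells build during puberty, leaned upward, with 8 of the 14 members (of 16 listed) tested higher and 2 lower. The barrier claudin Cldn11 had 371, 317 and 308 CPM at day 7 and 122.7, 116 and 128 CPM in tissue (1.43 ± 0.14), and Jam3 (2.00 ± 0.11), Jam2 (1.28 ± 0.10), occludin, Ocln (1.16 ± 0.10), and N-cadherin, Cdh2 (1.23 ± 0.11), rose. E-cadherin, Cdh1, which undifferentiated spermatogonia express, had 0.402, 6.16 and 0.457 CPM at day 7 and 12.2, 19.2 and 17.1 CPM in tissue (-2.79 ± 0.51), and connexin 43, Gja1, fell by 0.36 (SE 0.09). The scaffold Tjp1 was not called (-0.25 ± 0.14).

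Leydig cell genes moved in both directions. Cyp17a1, the enzyme that turns progestins into androgen precursors, had 0, 0.824 and 0 CPM at day 7, against 13.0, 13.0 and 10.8 CPM in tissue (-3.44 ± 0.24, limma adjusted p = 6.97e-08). It passed the filter through the tissue libraries alone, and 2 of the 3 culture libraries held no read of it. Hsd17b3, which completes testosterone, had 19.8, 17.6 and 15.9 CPM at day 7 and 46.7, 48.4 and 47.6 CPM in tissue (-1.37 ± 0.15). The lipoprotein receptor Scarb1 had 60.4, 65.8 and 47.6 CPM at day 7, against 209, 221 and 219 CPM in tissue (-1.90 ± 0.16). All 3 were lower in every culture library. Star, which delivers cholesterol to the first steroid enzyme, moved the other way, with 19.6, 15.5 and 16.8 CPM at day 7 and 7.46, 7.84 and 7.50 CPM in tissue (1.08 ± 0.18, limma adjusted p = 0.000193).

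Cyp11a1, that first enzyme, had 12.2, 10.0 and 7.31 CPM at day 7 and 13.5, 14.6 and 18.7 CPM in tissue (-0.63 ± 0.21), a call (limma adjusted p = 0.0188) lost without tissue replicate 3 or without day 7 replicate 3 (adjusted p up to 0.0936). The steroidogenic regulator Nr5a1, shared with Sertoli cells, was not called (-0.14 ± 0.15, limma adjusted p = 0.448). The LH receptor, Lhcgr, stood at 0.975, 4.64 and 0.254 CPM at day 7 and 1.01, 1.28 and 1.25 CPM in tissue (0.15 ± 0.39, limma adjusted p = 0.765), and its difference was -0.47 without day 7 replicate 2. Insl3, a Leydig cell hormone, had 49.6, 38.6 and 48.5 CPM at day 7 and 4.87, 5.41 and 4.84 CPM in tissue (2.94 ± 0.15), but it was listed at 0 in all libraries of the other experiment, so its counting is uncertain. Over the list, 4 of the 13 members (of 14 listed) tested rose and 5, Cyp17a1 among them, fell. These counts were near the shares over all genes tested, 28.7% higher and 32.1% lower. The summed level of the list was 474 to 563 CPM at day 7 and 695 to 713 CPM in tissue.

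**Figure D4:**
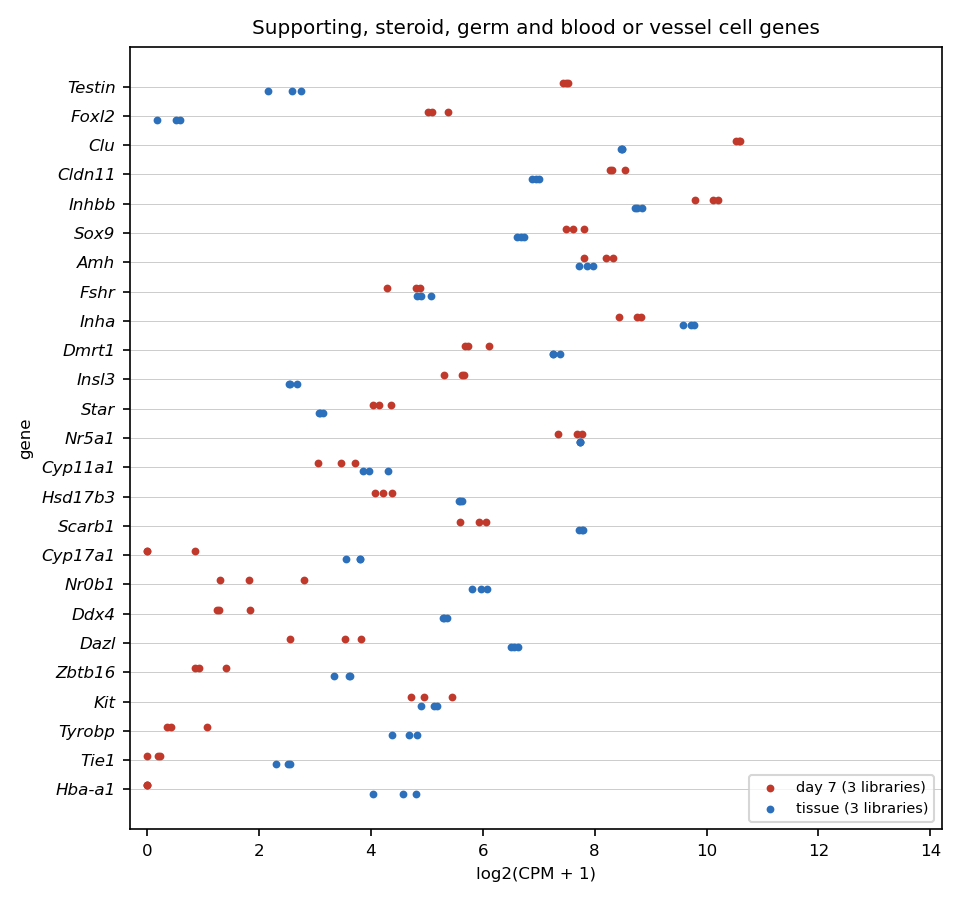
Level in each library, as log2(CPM + 1), of genes of Sertoli and other supporting cells (Testin to Dmrt1), steroid-producing cells (Insl3 to Nr0b1), germ cells (Ddx4 to Kit) and myeloid, vessel and red blood cells (Tyrobp, Tie1, Hba-a1). Red points are the 3 day 7 libraries and blue points the 3 tissue libraries. Amh, Fshr, Nr5a1 and Kit overlap between the groups, whereas Cyp17a1, Tie1 and Hba-a1 are near or at 0 at day 7.

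Markers of blood and vessel cells were low in both groups. Red cell globin Hba-a1 was at 0 in all 3 day 7 libraries, against 22.9, 15.4 and 27.1 CPM in tissue, which made it at least 144-fold lower (bound of 3 reads in each day 7 library). Of 8 red cell symbols 3 were tested, and 2 fell and 1 rose. Those that fell (Hba-a1 and Hba-a3) passed the filter through the tissue libraries alone. Alas2 rose by 1.17, a call lost in 2 of 21 alternatives. Tyrobp, an adaptor of myeloid cells, had 0.287, 0.347 and 1.12 CPM at day 7 and 24.6, 19.7 and 27.2 CPM in tissue (-4.00 ± 0.25), and the macrophage growth factor receptor Csf1r had 2.98, 2.17 and 1.88 CPM at day 7 and 5.88, 4.27 and 6.61 CPM in tissue (-0.97 ± 0.27). Of the 9 members (of 16 listed) for macrophages tested, 5 fell and 1 rose, the exception being Adgre1 (1.92 ± 0.944 CPM at day 7, 0.313 ± 0.161 CPM in tissue, 1.11 ± 0.26). Adgre1 passed the filter through the day 7 libraries alone. The summed level of the macrophage list was 28.8 to 41.3 CPM at day 7 and 87.8 to 102 CPM in tissue.

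In the endothelial list 2 of the 11 members (of 15 listed) tested rose and 6 fell (median -1.13). Of the 11, 4 (Tek, Tie1, Esam and Sox17) passed the filter through the tissue libraries alone. Egfl7 rose, a call lost in 10 of 20 alternatives. The angiopoietin-system receptors Tie1 (-2.31 ± 0.25) and Tek (-1.25 ± 0.19) fell, Sox17 was at 0 in every day 7 library, and von Willebrand factor, Vwf, had 2.95 ± 1.36 CPM at day 7 and 7.90 ± 0.580 CPM in tissue. Kdr, the main VEGF receptor, had 52.2, 41.8 and 58.1 CPM at day 7 and 8.38, 10.5 and 8.03 CPM in tissue (2.37 ± 0.18), and Cdh5 was not called (-0.51 ± 0.22). The summed endothelial level was 126 to 136 CPM at day 7 and 148 to 168 CPM in tissue, and the log2 ratio of the sums was 0.0015 once Cdh5 was taken out. Among mesothelial markers Upk1b (1.88 ± 0.20) rose with Lrrn4, Bnc1 fell (-1.73 ± 0.20), and Gpm6a and Krt7 were not called. Of these 5 genes, 1 (Lrrn4) passed the filter through the day 7 libraries alone and 1 through the tissue libraries alone. In the Schwann cell list 2 of the 4 members (of 6 listed) tested rose and 2 fell, and 1 of the 4 passed the filter through the tissue libraries alone. Ncam1 (1.06 ± 0.13) and S100b (0.49 ± 0.16, lost in 3 of 21 alternatives) rose. Of 10 lymphocyte and mast cell symbols, 9 were below the filter and 4 of these were at 0 in all 6 libraries. Cd79a, the only one tested, rose by 1.26 ± 0.19.

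Among growth factors of the TGF-beta and BMP families, 10 of the 19 members (of 22 listed) tested rose and 6 fell. All 3 TGF-beta ligands rose, and Tgfb2 had 211, 185 and 254 CPM at day 7, against 17.4, 15.3 and 17.8 CPM in tissue (3.60 ± 0.14). Bmp4 (2.63 ± 0.20) and Bmp6 (1.12 ± 0.18) rose beside Bmp3, and Bmp7 was not called. The activin-binding protein Fstl3 had 18.6, 15.2 and 32.2 CPM at day 7 and 101, 99.0 and 102 CPM in tissue (-2.21 ± 0.23). Target genes did not move as 1 block, since Id3 rose (1.17 ± 0.18) while Id1 (-1.28 ± 0.17), Id2 (-1.40 ± 0.21) and the inhibitor Smad6 (-1.19 ± 0.21) fell.

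Of the 16 members (of 20 listed) for the Wnt pathway tested, 8 rose and 2 fell. The ligand Wnt4 had 154, 98.3 and 148 CPM at day 7 and 12.8, 11.7 and 14.2 CPM in tissue (3.25 ± 0.17), and Wnt6 (0.42 ± 0.19) and Wnt5a (-0.15 ± 0.18) were not called. Of the secreted antagonists, Dkk2 had 22.3, 19.1 and 17.7 CPM at day 7, against 0.789, 0.963 and 0.658 CPM in tissue (3.52 ± 0.17), and Frzb and Sfrp5 were uneven among the culture libraries, at 17.8, 24.9 and 66.7 CPM (Frzb) and 4.93, 9.15 and 20.1 CPM (Sfrp5) at day 7, against 2.81, 2.61 and 1.88 CPM and 0.263, 0.0917 and 0.362 CPM in tissue (3.23 ± 0.53 and 3.13 ± 0.47). Dkk2 and Sfrp5 passed the filter through the day 7 libraries alone, and 1 other member of the list through the tissue libraries alone. The antagonist Wif1 was not called (-0.08 ± 0.23), and Notum, a target gene whose secreted product inactivates Wnt proteins, fell (-1.88 ± 0.22). Of the other target genes, Lef1 rose (1.31 ± 0.17) and Axin2 was not called (-0.38 ± 0.20). In the hedgehog list 4 of the 8 listed members tested rose and 0 fell, with the Sertoli cell ligand Dhh at 0.56 ± 0.13 and the receptor component Smo at 0.60 ± 0.12. The target gene Gli1 was not called (-0.28 ± 0.16), and the call of the receptor and target Ptch1 (0.34 ± 0.13) was lost in 6 of 21 alternatives.

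Insulin-like growth factors moved in opposite directions, and in their list 5 of the 10 members (of 11 listed) tested rose and 2 fell. Igf1 had 85.7, 115 and 107 CPM at day 7 and 35.6, 31.6 and 33.8 CPM in tissue (1.57 ± 0.18). The fetal growth factor Igf2 had 4.82, 5.20 and 4.57 CPM at day 7, against 37.4, 42.3 and 41.0 CPM in tissue (-2.81 ± 0.25, limma adjusted p = 5.31e-07). The binding proteins differed as widely: Igfbp5 had 12.3, 11.4 and 35.2 CPM at day 7 and 225, 204 and 212 CPM in tissue (-3.56 ± 0.31), and Igfbp7 had 1653, 1816 and 1950 CPM at day 7 and 517, 462 and 512 CPM in tissue (1.86 ± 0.10).

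In the retinoic acid list 2 of the 12 members (of 15 listed) tested rose and 6 fell. The binding protein Crabp2 had 1.03, 0.780 and 1.37 CPM at day 7, against 63.0, 54.4 and 67.7 CPM in tissue (-4.93 ± 0.23), and Crabp1 (-3.19 ± 0.28) and the retinol importer Stra6 (-2.03 ± 0.22) fell. Cyp26b1, which degrades retinoic acid in the fetal testis, had 462, 406 and 379 CPM at day 7 and 193, 179 and 194 CPM in tissue (1.13 ± 0.09). Aldh1a1, which oxidises retinaldehyde to retinoic acid, was not called (0.05 ± 0.11). Of the 14 members (of 21 listed) for chemokines and inflammation tested, 9 fell and 1 rose, with Cxcl1 at 0.451 ± 0.357 CPM at day 7 and 12.2 ± 1.20 CPM in tissue (-3.21 ± 0.21) and the cytokine Lif as the riser (1.24 ± 0.29). Cxcl1 was 1 of 2 members of this list that passed the filter through the tissue libraries alone.

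Glucocorticoid-responsive genes fell, 8 of the 10 listed members tested, with 0 rising (median -1.56). The metallothionein Mt2A had 3.44, 2.47 and 3.10 CPM at day 7 and 78.3, 71.6 and 76.7 CPM in tissue (-4.26 ± 0.16), and Mt1 (-3.89 ± 0.22), Errfi1 (-2.40 ± 0.12) and Fkbp5 (-0.95 ± 0.12) fell. Tsc22d3, a classical target in this list, was not called (0.26 ± 0.13), and the metallothioneins also respond to metals. Of clock genes 6 of the 14 members (of 15 listed) tested fell and 3 rose (median -0.26), beside 32.1% lower and 28.7% higher over all genes tested. Per2 (-1.35 ± 0.13) and Cry1 (-1.24 ± 0.13) were lower, Clock was higher (0.49 ± 0.14) and Bmal1 was not called (0.06 ± 0.10).

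Energy genes moved by small amounts. Of the 19 members (of 20 listed) for nuclear-encoded parts of the respiratory chain tested, 14 fell and 0 rose, with a median of -0.42. The ATP synthase subunit Atp5f1b had 1039, 943 and 939 CPM at day 7 and 1753, 1534 and 1810 CPM in tissue (-0.80 ± 0.11). Among the 13 messenger RNAs of the mitochondrial genome 3 fell and 0 rose, with Mt-co3 at 2180, 2107 and 2608 CPM at day 7 and 4298, 6043 and 4601 CPM in tissue (-1.11 ± 0.30), while 8 fell when only the 6 libraries were fitted and 6 without day 3 replicate 3 or day 5 replicate 1. Glycolysis and hypoxia genes had 3 higher and 3 lower of the 18 members (of 20 listed) tested (median -0.01), and lactate dehydrogenase Ldha stood at 542 ± 25.0 CPM at day 7 and 547 ± 16.8 CPM in tissue.

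The remaining stress and metabolic lists had calls in both directions, as had the genes tested as a whole (28.7% higher and 32.1% lower). For endoplasmic reticulum chaperones 6 of the 15 listed members tested rose and 3 fell, and Hspa5, the sensor chaperone of that compartment, had 908, 876 and 953 CPM at day 7 and 1595, 1643 and 1542 CPM in tissue (-0.80 ± 0.13), while Hyou1 rose (0.89 ± 0.08). In the NRF2 antioxidant list 3 of the 14 members (of 15 listed) tested rose and 4 fell. The cystine importer Slc7a11 had 7.00, 7.63 and 9.18 CPM at day 7 and 0.789, 0.550 and 0.790 CPM in tissue (2.38 ± 0.20). Slc7a11 passed the filter through the day 7 libraries alone. Nqo1 rose by 1.34 ± 0.23. In the ATF4 list 6 of the 14 members (of 15 listed) tested rose and 4 fell, with Trib3 (2.43 ± 0.27) and Sesn2 (1.27 ± 0.14) higher and Atf4 itself lower (-1.19 ± 0.15). Of the 21 members (of 22 listed) for cholesterol and fatty acid synthesis tested, 3 rose and 4 fell. Insig1, a sterol sensor, had 77.9 ± 2.64 CPM at day 7 and 270.2 ± 14.3 CPM in tissue (-1.78 ± 0.14).

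Levels at day 7 were also tested against the earlier cultures, in the same fit and over the same 12782 genes. Against day 3, 3.78% of genes were called, 176 (1.38%) higher and 307 (2.4%) lower at day 7. Against day 5 there were 10 (0.0782%), 7 (0.0548%) higher and 3 (0.0235%) lower, while 1796 genes had an unadjusted p under 0.05. These counts depended on single libraries. Against day 3, the number of higher genes was 66 without day 3 replicate 1, 81 without day 7 replicate 3 and 105 without day 3 replicate 2. The number of lower genes was 111, 127 and 189 without these libraries in turn, and 189 without day 7 replicate 1. Against day 5, the counts ran from 0 higher and 0 lower without day 7 replicate 3 to 31 higher and 24 lower without day 5 replicate 2.

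Among genes lower at day 7 than at day 3 were 14 of the 20 replication genes and 15 of the 19 mitosis genes tested, and 0 genes of either list were higher. These counts rested on single libraries, since the mitosis count was 6 without day 7 replicate 3, 7 without day 3 replicate 1, 9 without day 3 replicate 2 and 10 without day 7 replicate 1, and the replication count was 10 without day 7 replicate 3 or day 3 replicate 1. Mcm2 had 104, 106 and 101 CPM at day 7 and 155, 137 and 160.5 CPM at day 3 (difference -0.53 ± 0.09, limma adjusted p = 0.00612). Rrm2, a subunit of the enzyme that makes DNA precursors, had 21.6, 23.6 and 19.5 CPM at day 7, against 42.5, 38.2 and 45.6 CPM at day 3 (-0.93 ± 0.11, limma adjusted p = 0.000576). Bub1 and the mitotic kinase Plk1 differed by -0.70 ± 0.12 and -0.76 ± 0.10. Mki67 was not called between the 2 days (-0.38 ± 0.23, limma adjusted p = 0.526).

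Of the fibrillar collagen and crosslinking list, 5 of 19 tested were higher at day 7 than at day 3 and 0 lower. Elastin, Eln, had 1343, 1281 and 2136 CPM at day 7 and 164, 252 and 445 CPM at day 3, with 284, 239 and 266 CPM in tissue (day 7 minus day 3 2.54 ± 0.30, limma adjusted p = 0.000857). Col11a1 had 234, 187 and 246 CPM at day 7 and 43.1, 48.6 and 46.2 CPM at day 3 (2.24 ± 0.20, limma adjusted p = 0.000123). Igf1 had 85.7, 115 and 107 CPM at day 7 and 24.6, 35.5 and 34.0 CPM at day 3 (1.69 ± 0.18, limma adjusted p = 0.000374). For Eln and Igf1 the day 3 libraries overlapped the tissue libraries, and every day 7 library stood above both groups. Serpine2 (2.50 ± 0.22), Mmp2 (1.04 ± 0.09), Col1a1 (1.18 ± 0.18), Col3a1 (0.89 ± 0.13) and Myh11 (0.95 ± 0.14) were called in the same direction in the main fit and in each of 20 alternatives. Col8a1 and Lox, far above tissue at both times, were not called between the days (-0.24 ± 0.19 and 0.16 ± 0.25).

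Amh had 319, 294 and 224 CPM at day 7 and 458, 552 and 645 CPM at day 3, a difference of -0.98 ± 0.21 (limma adjusted p = 0.0191), a call lost in 3 of 20 alternatives. Foxl2 had 40.6, 31.5 and 33.1 CPM at day 7 and 10.1, 13.3 and 11.2 CPM at day 3 (1.52 ± 0.37, limma adjusted p = 0.0393), and its call was lost in 11 of 20. Of the immediate early genes 1 of 24 and of the heat shock chaperones 0 of 19 were higher at day 7 than at day 3. Hspa1b had 11.1, 5.64 and 7.76 CPM at day 7 and 5.02, 6.15 and 8.94 CPM at day 3 (0.24 ± 0.26), and Fosb was higher at day 7, with 9.70, 6.20 and 6.39 CPM against 3.66, 2.54 and 4.07 CPM at day 3 (0.92 ± 0.18, limma adjusted p = 0.0108).

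**Figure D5:**
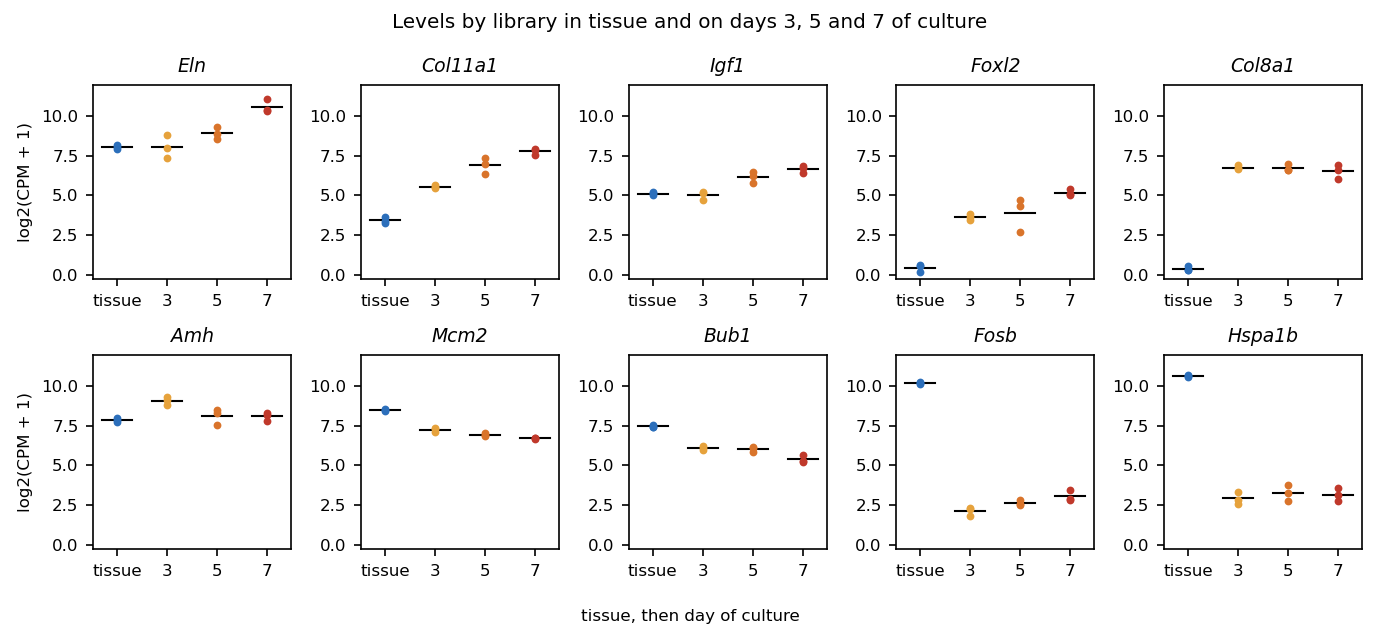
Level in each library, as log2(CPM + 1), of 10 genes in tissue and on days 3, 5 and 7 of culture, with points for the 3 libraries of a group and a bar for their mean. Eln, Col11a1, Igf1 and Foxl2 are higher at day 7 than at day 3, Amh, Mcm2 and Bub1 are lower, and Col8a1 and Hspa1b stay near their day 3 level.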

How the data were processed

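Per the labels' protocols, cultures were washed free of gel and lysed, and poly-T-purified RNA was turned into cDNA from random primers and sequenced without strand information on a NovaSeq, so antisense and overlapping genes cannot be separated. STAR was the aligner and mRatBN7.2 the build, per the submitters' processing notes. Counting tool and gene annotation: not given in the sources used here. The authors deposited CPM values, all of which were whole multiples of 1 read to within 0.01 read, so whole reads were recovered for the count tests, and 3.07 to 3.98% of reads lay outside the listed genes.

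Values were log2(CPM + 1). One limma 3.58.1 fit (R 4.3.3, empirical Bayes with trend, group only) covered all 12 baseline libraries, with two-sided p-values adjusted by Benjamini-Hochberg over 12782 genes. edgeR 4.0.16 and DESeq2 1.42.0 on recovered reads, other filters, pseudocounts and scaling, a replicate block and left-out libraries were alternatives. The fit was tested on simulated data.

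Named genes were the 10 that rose and fell most (called, no overlap, at least 5 CPM), the 6 largest gains and losses in CPM, up to 5 and 2 called members per list and a panel of 24. Other list members are named to describe their list, after their values were seen. Some list members are not reported here. The gene lists held 607 symbols in 37 lists, 27 of them not analysed here. Members, lists and tests were chosen with earlier results of these data known, and the promoter sequences are RefSeq's, GRCr8.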

Additional observations from a re-analysis of the deposited data

Results flagged for a closer look

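Of a panel of 24 genes followed whatever their values (Pecam1 not analysed here), 5 had a difference from tissue at day 7 that differed from the one at day 3, tested as day 7 minus day 3 (log2, limma, 3 libraries per group), so that tissue cancels. Col1a1, a collagen chain, was higher at day 7 by 1.18 (limma adjusted p = 0.00418), at 6792, 7389 and 10850 CPM at day 7 and 3090, 3985 and 3799 CPM at day 3. Fosb, an immediate early gene, was higher by 0.92 (limma adjusted p = 0.0108), although both days were more than 100-fold below tissue. The replication gene Mcm2 differed by -0.53 (limma adjusted p = 0.00612). The Sertoli cell genes Amh and Inha differed by -0.98 (limma adjusted p = 0.0191) and -0.55 (limma adjusted p = 0.0204), and each of these 2 calls was lost without day 7 replicate 3, day 3 replicate 2 or day 3 replicate 3. Groups of 3 libraries were too small to test single libraries as outliers.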

How the results depend on the processing

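Under 21 alternatives (pseudocounts of 0.1 and 5, no filter or a mean of at least 5 CPM, only the 6 libraries, TMM scaling, edgeR, DESeq2, the replicate number as a block, and leaving out each of the 12 libraries), the day 7 against tissue counts stayed within 1.5 times of 3668 higher and 4097 lower. They ran from 3253 to 3932 higher and 3558 to 4450 lower without 1 library. The replicate block, a fit that pairs same-numbered libraries, gave 3648 higher and 4051 lower. The numbers did not pair the libraries, since same-numbered deviations correlated at 0.04, 0.12 and -0.04, with 1 of 3 libraries closest to its own number. Of listed genes the block ended the calls of Egfl7, Cdkn1b and Ndufa9 against tissue and of Cdkn2c, Hyou1, Kif20a and Lmod1 against day 3, and it left 0 higher and 0 lower against day 5. Leaving out libraries of days 3 and 5 was chosen after seeing the data. Of 232 named genes, 212 kept direction and call under every alternative, and 19 lost a call under some. Lhcgr, never called, reversed to -0.067 with a pseudocount of 0.1 and ran from -0.47 to 0.62 without 1 library.

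Against day 3, DESeq2 called 407 higher, and the counts without 1 library were 66 to 158 higher and 111 to 300 lower. Against day 5, counts of higher and lower genes were 0 and 0 without a filter and 155 and 86 with DESeq2, the lower count was 6 with a mean of at least 5 CPM and 1 with TMM scaling, and without 1 library they ran from 0 to 31 and from 0 to 24. Glycolysis had 5 members higher at day 7 with only the 6 libraries and 6 with DESeq2. The cause was not tested. Of 77 listed or named genes called between days 7 and 3, 33 were called under every alternative. Some summed list levels rest on their most abundant member. Without it the log2 ratio of day 7 over tissue reversed for endothelial markers (0.0015), lymphocyte and mast cell markers (-3.78), glycolysis (-0.0013) and ATF4 genes (0.12), and without day 7 replicate 3 it reversed for endoplasmic reticulum chaperones (-0.027, the range without 1 library being -0.027 to 0.0597). With 3 technical replicates of 1 litter, no alternative speaks for other litters.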

Other observations

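The genes in these paragraphs were chosen after their values were seen. Several genes known from the supporting cells of the ovary rose at day 7. Beside Foxl2 and Wnt4, the Wnt enhancer Rspo1 had 5.22, 3.51 and 3.45 CPM at day 7 and 1.36, 1.15 and 1.25 CPM in tissue (1.15 ± 0.21, limma adjusted p = 0.00031), the transcription factor Runx1 had 21.6, 16.3 and 29.9 CPM at day 7 and 1.32, 1.38 and 0.921 CPM in tissue (3.38 ± 0.19), and the receptor for anti-Müllerian hormone, Amhr2, had 289, 263 and 217 CPM at day 7 and 59.6, 52.6 and 61.7 CPM in tissue (2.12 ± 0.18). Not all genes of that kind rose, since Fst (-0.51 ± 0.16) and Irx3 (-0.94 ± 0.25) fell, although the Irx3 call was lost with edgeR and DESeq2 and the Fst call without tissue replicate 1 or day 7 replicate 3. Aromatase, Cyp19a1, stayed below the filter at 1.66, 0.911 and 1.88 CPM at day 7 and 0.0877, 0.184 and 0.263 CPM in tissue. Below the filter too were Esr2 (1.61 ± 0.72 CPM at day 7, 0.28 ± 0.13 CPM in tissue) and Lgr5. The mean of Lgr5 was lower at day 7 (0.089 ± 0.072 CPM) than in tissue (0.27 ± 0.039 CPM). Nr0b1, a repressor in steroid-producing and Sertoli cells, fell to 2.52, 6.03 and 1.47 CPM at day 7, against 61.7, 54.7 and 66.8 CPM in tissue (-3.97 ± 0.30).

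Genes of striated muscle were among the larger changes and did not move as a set. Tnnc1 (4.58 ± 0.18), Tnnt2 (3.94 ± 0.13), Mybpc3 (3.01 ± 0.15), the myosin chaperone Unc45b (3.56 ± 0.13) and Casq2, a calcium store protein (2.80 ± 0.30), rose, while Tnni3 (-3.15 ± 0.22) and Tnnt1 (-2.49 ± 0.31) fell. Tnni3 passed the filter through the tissue libraries alone. Myh4 rose (3.45 ± 0.22) but passed through the day 7 libraries alone, and Tnni1 was not called (-0.53 ± 0.27). Single genes with larger gains were the collagen-binding integrins Itga1 (3.57 ± 0.27) and Itga11 (3.47 ± 0.17) and the interleukin 1 receptor Il1r1 (3.30 ± 0.17). The homeobox gene Hoxd10 had 17.0, 25.4 and 21.2 CPM at day 7 and 7.63, 6.24 and 8.49 CPM in tissue (1.38 ± 0.18).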
